A study of Mus musculus with 36 samples.

Results

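The 8 genes described here are Il2, Csf2, Il3, Tnf, Lta, Ltb, Tnfsf11 and Tnfsf10, the effector cytokines and tumour necrosis factor (TNF) superfamily ligands of CD4+ T cells other than Ifng. They were picked out of the table by gene symbol from a list drawn up with earlier results of these data known, and are 8 of its 56748 genes. RNA was measured in CD4+ T cells of 2 mouse lines on a mixed background that is in part C57BL/6. In the HP1a line the KO mice lacked Cbx5, which encodes HP1α, in the germ line. In the HP1g line the KO mice lacked Cbx3, which encodes HP1γ, in T cells only, through a Cd4-driven Cre. WT cells came from littermates of the same sex, and the donor mice were 6 to 12 weeks old. Naive cells were CD62L+ CD44-/low CD4+ T cells isolated with beads from the spleens of these mice. Tconv were donor CD4+ T cells that carried the Vβ6 receptor chain, sorted from the spleens of lethally irradiated C57BL/6 hosts 3 weeks after a graft of equal parts of C57BL/6 and B6D2F1 bone marrow. Tconv with Treg came from hosts of the same kind that had also been injected with WT regulatory T cells (Treg) expanded in culture. Each of the 12 groups (2 lines, WT and KO, 3 conditions) had 3 libraries, apart from HP1g KO Tconv with Treg with 2, since its replicate 3 was left out for its read quality.

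These genes are the messages by which an activated CD4+ T cell acts on other cells. Il2 encodes interleukin-2, the growth factor of T cells, on which Treg depend. Csf2 encodes GM-CSF and Il3 encodes interleukin-3, both of which act on myeloid cells and their precursors. Tnf and Lta encode the soluble inflammatory ligands TNF and lymphotoxin α, while Ltb encodes the membrane anchor that holds lymphotoxin α at the cell surface, a complex needed for lymph node structure. Tnfsf11 encodes RANKL, which drives osteoclasts and activates dendritic cells, and Tnfsf10 encodes TRAIL, a ligand that can kill cells through death receptors. In T cells most of these genes are switched on by receptor signals through NFAT, AP-1 and NF-κB. Several of their mRNAs carry AU-rich elements, runs of the letters ATTTA in the 3′ untranslated region (UTR) that bind proteins controlling mRNA decay.

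Total counts lay between 37029519 and 63042245 per library (median 46844690), so that 3 counts, used here as the floor of detection, equal a CPM (count divided by the library total and scaled) of 0.0476 to 0.081. Levels are normalised CPM, and where genes are compared with each other the CPM is divided by the length of the gene's exons in kilobases. The labels do not say that the replicates were separate animals, so p-values measure the spread between these libraries. Naive and grafted cells, and the HP1a and HP1g lines, were deposited as separately named sets, so that condition or line and set cannot be told apart. The deleted genes followed the labels, as the WT and KO libraries of a condition did not overlap. Cbx5 lay at 18.5 to 61.8 CPM in HP1a WT and 9.2 to 19.7 CPM in HP1a KO libraries, and Cbx3 at 79.0 to 199.5 CPM in HP1g WT and 60.5 to 80.8 CPM in HP1g KO libraries. All libraries held T cell RNA, with Cd3e at 797 to 1642 CPM and Cd4 at 630 to 1334 CPM. Cd8a, a defining marker of CD8 T cells, reached at most 1.63 CPM. A list of 4 markers of CD8 T or NK cells summed to more, 18.8 to 30.2 CPM in naive and 7.08 to 27.5 CPM in grafted cells. In each naive group only 1 of these 4 had a mean of at least 1 CPM. Which cells this RNA came from was not tested. Trbv19, the gene segment of Vβ6, lay at 35.7 to 69.0 CPM in naive and 311 to 583 CPM in grafted cells. RNA of other cells was also present. The sum of 12 myeloid markers was 6.5 to 14.7 CPM in naive cells and 7.1 to 616 CPM in grafted cells, and that of 6 erythroid markers was 3103 to 5445 CPM in replicate 1 of all 4 grafted HP1g groups against 67.1 to 272 CPM in their other replicates. In bulk RNA fewer cells of a type and less RNA per cell cannot be told apart.

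The AU-rich elements of Csf2, Tnf and Il2 are shown because the mRNAs of these 3 genes held the densest runs of them. They are stretches of 30 bases of the 3′ UTR in GRCm39, 5′ to 3′, with each ATTTA in capitals, and that of Lta is given for contrast.
Csf2: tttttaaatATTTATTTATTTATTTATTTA
Tnf: attATTTAttATTTATTTAttATTTATTTA
Il2: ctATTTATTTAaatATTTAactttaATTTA
Lta: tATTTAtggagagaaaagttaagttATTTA
In Csf2 the stretch spans bases 230 to 259 of a 3′ UTR of 317 bases, in Tnf bases 437 to 466 of 764, in Il2 bases 35 to 64 of 581 and in Lta bases 300 to 329 of 572. ATTTA, counted with overlaps on the sense strand, occurred 9 times in the 3′ UTR of Csf2, 8 in Tnf, 7 in Il2, 3 in Lta, 1 in Il3, 6 in Tnfsf11 and 8 in the 3998 bases of Tnfsf10. Ltb had none in 174 bases. The longer form TTATTTATT, which holds an ATTTA, occurred 5 times in Tnf, 4 in Csf2 and once each in Il2 and Lta, and in none of the other 4 genes. Among 20830 genes with a 3′ UTR, 8.34% held TTATTTATT and 67.4% held ATTTA. Among the 9027 genes with a 3′ UTR of 150 to 1200 bases, 3.84% held TTATTTATT.

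Tnf, Lta and Ltb lie side by side on chromosome 17 in the major histocompatibility complex. Ltb is at chr17:35413382-35415296 on the plus strand, Tnf at chr17:35418357-35420983 on the minus strand and Lta at chr17:35422141-35424327 on the minus strand, so that 3060 bases separate Ltb from Tnf, 1157 separate Tnf from Lta, and all 3 fit within 10946 bases. Csf2 (chr11:54138097-54140493, minus strand) and Il3 (chr11:54156129-54158103, minus strand) are 15635 bases apart. Il2 is at chr3:37174672-37180108 on the minus strand, Tnfsf10 at chr3:27371033-27396576 on the plus strand and Tnfsf11 at chr14:78514885-78545490 on the minus strand. Genes on the opposite strand share exon bases with Csf2 and Ltb, 149 bases of Csf2 with Gm57329 and 354 bases of Ltb with Gm65873. The library kit does not mark strand, so reads of such partners cannot be told apart, and neither partner had counts.

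The promoters of Il2, Csf2 and Tnf, 3 of the genes that were higher in Tconv than in naive cells, are shown from 250 bases before to 50 bases after the start of the canonical transcript in GRCm39. Letters in capitals mark the NFAT core GGAAA or, on the other strand, TTTCC.
Il2, chr3:37180059-37180358, minus strand: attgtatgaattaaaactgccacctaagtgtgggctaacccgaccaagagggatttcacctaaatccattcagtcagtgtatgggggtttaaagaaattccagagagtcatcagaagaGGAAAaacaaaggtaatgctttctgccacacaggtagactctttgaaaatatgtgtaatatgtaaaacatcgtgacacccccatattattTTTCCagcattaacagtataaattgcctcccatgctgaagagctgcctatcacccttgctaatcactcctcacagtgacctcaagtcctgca
Csf2, chr11:54140444-54140743, minus strand: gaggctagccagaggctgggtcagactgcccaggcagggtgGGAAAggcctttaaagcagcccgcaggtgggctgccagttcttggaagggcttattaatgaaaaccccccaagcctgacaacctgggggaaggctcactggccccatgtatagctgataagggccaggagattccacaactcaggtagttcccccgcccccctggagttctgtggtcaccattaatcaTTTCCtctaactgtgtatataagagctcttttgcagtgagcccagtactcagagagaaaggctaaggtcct
Tnf, chr17:35420934-35421233, minus strand: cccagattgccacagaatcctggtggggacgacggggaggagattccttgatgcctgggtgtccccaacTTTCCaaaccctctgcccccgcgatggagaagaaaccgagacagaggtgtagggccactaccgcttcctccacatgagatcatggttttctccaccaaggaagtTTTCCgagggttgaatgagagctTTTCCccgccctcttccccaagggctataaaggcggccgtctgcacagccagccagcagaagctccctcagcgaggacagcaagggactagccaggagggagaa
The GGAAA core, searched on both strands, occurred at 2 places in the promoters of Il2 and Csf2, at 3 in those of Tnf and Lta and at 1 in those of Ltb, Il3, Tnfsf11 and Tnfsf10. It also occurred in 63.4% of 21757 promoters of this length. The AP-1 motif TGANTCA occurred in none of the 8 and in 7.15% of all promoters, and an NF-κB motif occurred once, in Ltb, and in 8.97% of all promoters. The NF-κB match in Ltb contains its GGAAA.

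**Figure D1:**
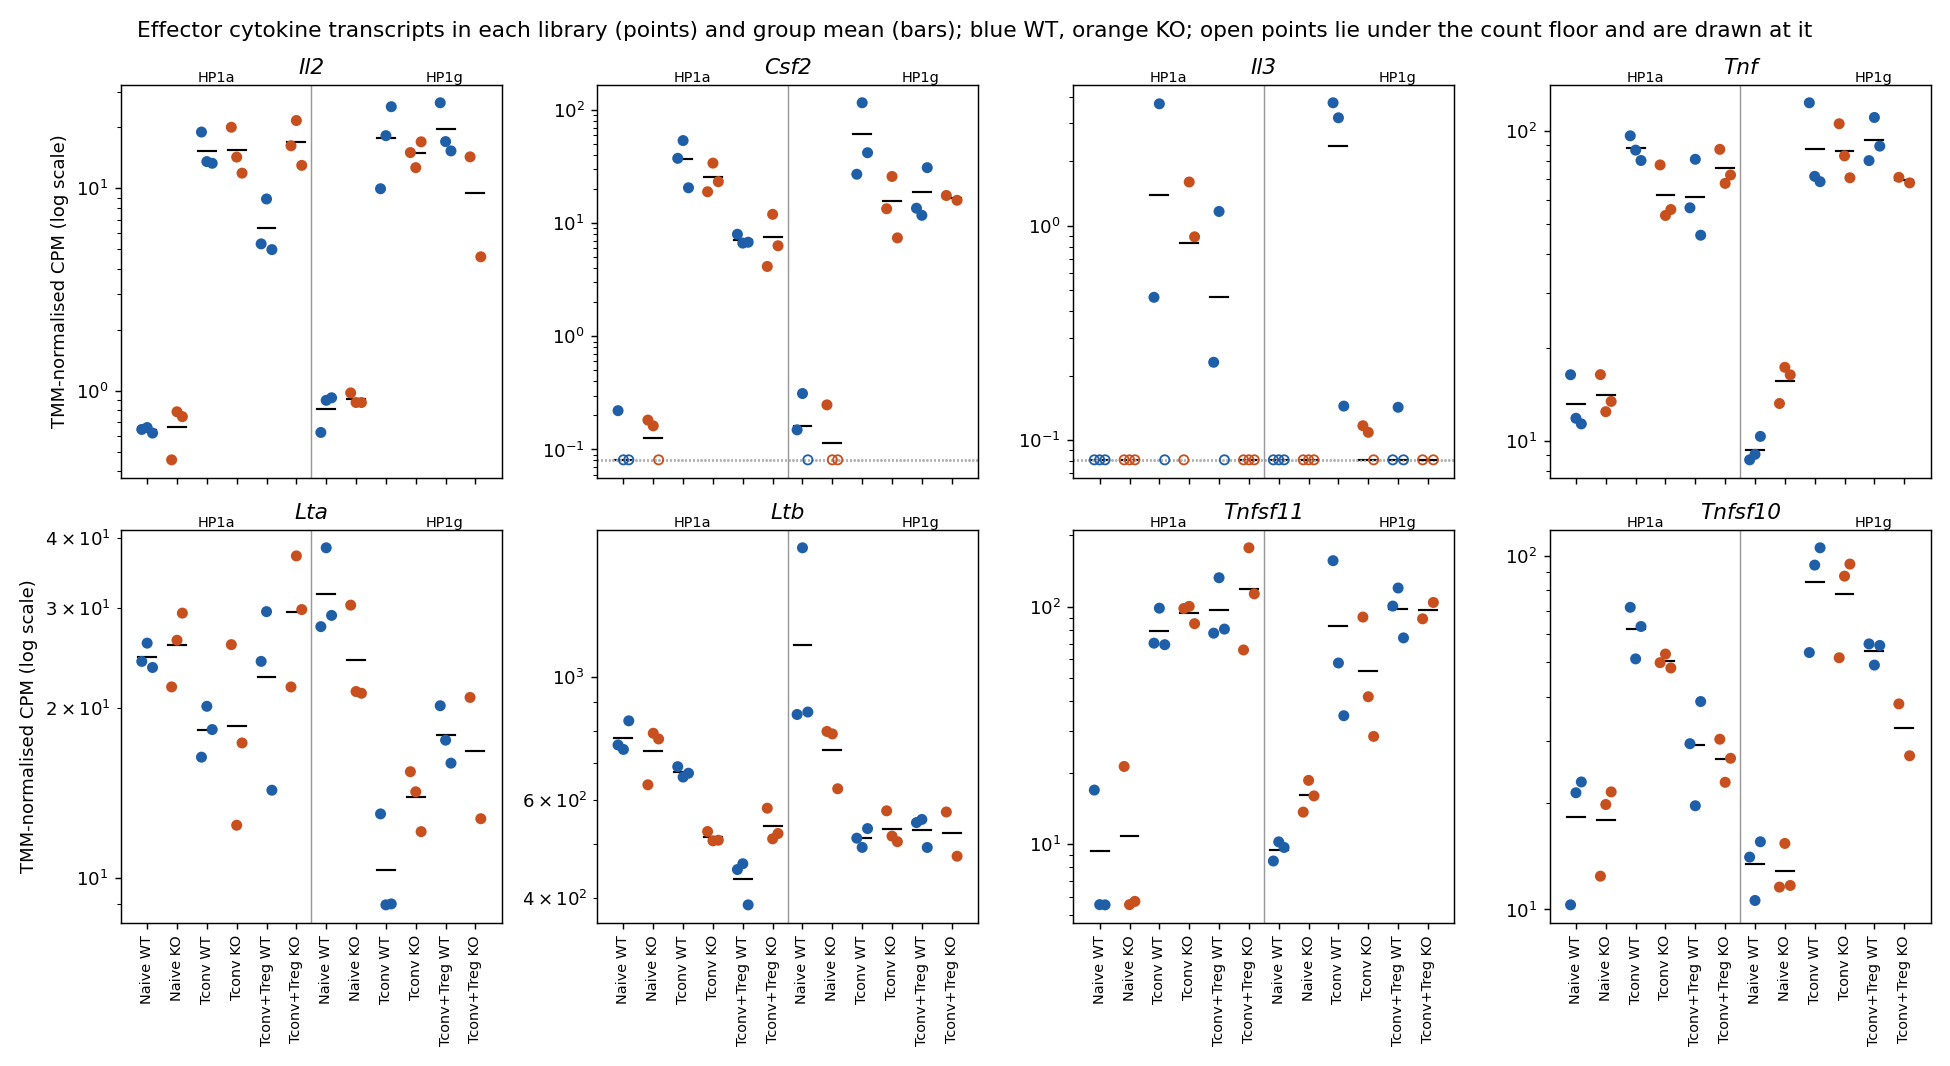
Level of each gene in every library (CPM, log axis), by group, with WT libraries in blue and KO libraries in orange. Points are libraries, bars are group means, and open points lie under the floor and are drawn at 0.081 CPM. Il2, Csf2, Tnf and Tnfsf11 were higher in every grafted library than in every naive one, Il3 was at 0 in all naive libraries, and Ltb was at 389 CPM or above in all libraries.

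Per length, Ltb was the most abundant of the 8 in every group, with group means of 280 to 738 CPM per kb. In naive cells Lta followed with 15.1 to 19.7 CPM per kb, then Tnf with 5.72 to 9.53, Tnfsf11 with 4.16 to 7.15 and Tnfsf10 with 2.38 to 3.37. Il2 was low (0.56 to 0.79) but above the floor in all 12 naive libraries. Csf2 (0.10 to 0.20) was close to the limit of detection and Il3 was at 0. In grafted cells the order after Ltb was different. Group means of Tnf were 37.4 to 57.0 CPM per kb, those of Tnfsf11 23.9 to 53.0, of Csf2 8.94 to 77.2, of Il2 5.58 to 17.1, of Lta 6.39 to 18.3, of Tnfsf10 4.93 to 15.6 and of Il3 0 to 3.75.

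Il2 was low in naive cells and higher in every grafted library. In naive HP1a WT cells its level was 0.643, 0.657 and 0.617 CPM and in HP1a KO cells 0.455, 0.786 and 0.744. Tconv held 18.97, 13.6 and 13.3 CPM in HP1a WT, 20.03, 14.3 and 11.9 in HP1a KO, 9.95, 18.2 and 25.3 in HP1g WT and 15.02, 12.6 and 17.0 in HP1g KO. These 4 groups of Tconv overlapped. With Treg the groups spread further, with 5.31, 8.86 and 4.98 CPM in HP1a WT, 16.2, 21.6 and 13.0 in HP1a KO, 17.0, 15.3 and 26.5 in HP1g WT, and 4.59 and 14.3 in HP1g KO. In the order of group means, HP1g WT Tconv with Treg was highest (19.6 ± 6.01 CPM, SD, n = 3) and HP1a WT Tconv with Treg was the lowest of the grafted groups (6.38 ± 2.15 CPM). Neighbours in that order overlapped everywhere except at the step from the grafted to the naive groups.

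Csf2 ranged from 0 to 116 CPM over the 35 libraries. Its naive libraries lay between 0 and 0.312 CPM, and 6 of the 12 reached the floor of 3 counts. In Tconv it reached 37.5, 53.8 and 20.6 CPM in HP1a WT, 18.98, 34.0 and 23.3 in HP1a KO, 27.1, 116 and 42.0 in HP1g WT and 13.4, 25.9 and 7.42 in HP1g KO. HP1g WT Tconv replicate 2, at 116 CPM, was the highest of all libraries and made that group's mean both the highest and the least certain (61.7 ± 47.6 CPM). With Treg the level was 7.99, 6.67 and 6.79 CPM in HP1a WT and 4.15, 11.99 and 6.32 in HP1a KO, below every Tconv library of the same line. In the HP1g line it was 11.7, 31.0 and 13.6 CPM in WT, and 16.0 and 17.6 in KO, within the range of Tconv.

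Il3, the neighbour of Csf2, was at 0 in all 12 naive libraries. In Tconv it was uneven between replicates, with 0.464, 3.71 and 0.027 CPM in HP1a WT, 0, 1.60 and 0.888 in HP1a KO, 3.75, 3.19 and 0.144 in HP1g WT and 0.117, 0.109 and 0 in HP1g KO. With Treg the 3 HP1a KO and both HP1g KO libraries were at 0, and the WT libraries lay between 0 and 1.17 CPM. Against the highest floor of the naive libraries of the same line and genotype (3 counts in a library), the mean of Tconv was at least 23.2-fold higher in HP1a WT, 11.5-fold in HP1a KO, 30.04-fold in HP1g WT and 1.09-fold in HP1g KO. In the HP1g WT group the lowest library was at 0.144 CPM, and each of the other 3 groups holds a library under the floor.

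The 3 genes of the TNF locus had different patterns. Tnf lay at 8.70 to 17.3 CPM in naive libraries and 46.1 to 123 CPM in grafted libraries, without overlap. In HP1a WT Tconv its level was 96.5, 86.8 and 80.3 CPM and in HP1g WT Tconv 123, 71.4 and 68.6. Lta, which starts upstream of Tnf, lay at 21.2 to 38.4 CPM in naive libraries, 8.95 to 25.9 CPM in Tconv and 12.7 to 37.1 CPM in Tconv with Treg. Ltb was 450, 461 and 389 CPM in HP1a WT Tconv with Treg, the lowest group, and 689, 660 and 671 in HP1a WT Tconv, which lay above all other grafted groups. Its highest group, naive HP1g WT (1143 ± 490 CPM), owed its mean to replicate 2 at 1708 CPM, beside 856 and 865 in the other replicates.

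The balance within the locus can be given per length in each library. The ratio of Tnf to Lta had a median of 0.457 (range 0.232 to 0.797) over 12 naive libraries, 5.76 (2.96 to 9.36) over 12 Tconv libraries and 3.35 (1.80 to 6.21) over 11 libraries of Tconv with Treg. The naive libraries did not overlap with the grafted ones. The ratio of Lta to Ltb had medians of 0.0322, 0.0250 and 0.0354 in the same order.

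Tnfsf11 and Tnfsf10 were both present in naive cells and higher in Tconv. Tnfsf11 lay at 5.54 to 21.2 CPM in naive libraries and 28.4 to 177 CPM in grafted libraries. Its spread within groups was wide, as in HP1g WT Tconv (157, 58.0 and 34.7 CPM), HP1g KO Tconv (90.6, 41.8 and 28.4) and HP1a KO Tconv with Treg (65.8, 177 and 113). No order among the grafted groups could be read for Tnfsf11, since all neighbours overlapped. Tnfsf10 lay at 10.3 to 22.9 CPM in naive libraries, 48.2 to 106 CPM in Tconv and 19.7 to 56.4 CPM in Tconv with Treg. Its 5 highest group means were the 4 groups of Tconv and HP1g WT Tconv with Treg, and the last of these 5, HP1a KO Tconv (50.3 ± 2.31 CPM), did not overlap with the next, HP1g KO Tconv with Treg (32.7 ± 7.74 CPM).

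The comparison of Tconv with naive cells asks how these genes respond to the graft. Il2, Csf2, Tnf, Tnfsf11 and Tnfsf10 were called higher in all 4 comparisons (HP1a WT, HP1a KO, HP1g WT and HP1g KO). Lta and Ltb had values below 0 in all 4 and were called lower in HP1g WT. Calls rested on the edgeR quasi-likelihood test, and needed both a Benjamini-Hochberg adjusted p under 0.05 over all genes and an absolute log2 fold change of more than 1. With this rule 5 of the 7 members tested were called in HP1a WT, 5 in HP1a KO, 7 in HP1g WT and 5 in HP1g KO, against a background of 23.1%, 19.7%, 23.5% and 23.1% of all genes tested. The genes called higher alone were 12.9%, 12.4%, 15.0% and 15.7% of those tested, and the genes called lower 10.2%, 7.24%, 8.55% and 7.3%. Il3 did not pass the filter on low counts in these comparisons. DESeq2, which does not use that filter, called Il3 higher in HP1a WT and HP1g WT (14.0% and 15.1% of all genes called), and the fit of all 35 libraries called it in HP1a WT, HP1a KO and HP1g WT (19.2%, 17.6% and 21.2%). When 1 library was left out, edgeR called Il3 in 1 of 4 fits that kept it in HP1a WT, in 1 of 4 in HP1a KO and in 3 of 4 in HP1g WT.

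Among the 7 members that passed the filter, Csf2 had the highest log2 fold changes, 8.92 ± 0.86 (SE) in HP1a WT, 7.68 ± 0.47 in HP1a KO, 8.47 ± 0.84 in HP1g WT and 6.97 ± 0.78 in HP1g KO, with adjusted p of 0.000286, 3.44e-05, 0.000223 and 0.000503 (edgeR). As its naive counts were at or near 0, these fitted values depend on the handling of low counts. With 1 library left out, Csf2 ran from 8.36 to 11.76 in HP1a WT, 7.17 to 8.05 in HP1a KO and 7.65 to 9.39 in HP1g WT. Il3, in such fits that kept it, lay at 9.02 to 9.77, 8.29 to 8.95 and 9.70 to 10.25 in these groups. Il2 rose by 4.58 ± 0.24, 4.54 ± 0.32, 4.45 ± 0.41 and 4.05 ± 0.21 on the log2 scale in HP1a WT, HP1a KO, HP1g WT and HP1g KO. Tnf rose by 2.74 ± 0.17, 2.16 ± 0.18, 3.23 ± 0.27 and 2.49 ± 0.17. Among the other ligands, Tnfsf11 rose by 3.09 ± 0.51, 3.14 ± 0.57, 3.13 ± 0.52 and 1.76 ± 0.43, and Tnfsf10 by 1.77 ± 0.29, 1.503 ± 0.19, 2.66 ± 0.29 and 2.63 ± 0.25. The call of Tnfsf11 in HP1g KO (adjusted p 0.0188) was lost without any 1 of the 3 naive HP1g KO libraries, and without the filter on low counts (adjusted p 0.0853).

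Lta and Ltb had log2 fold changes below 0 in all 4 comparisons. In HP1g KO both passed the adjusted p but not the fold threshold, and in each HP1a comparison either Lta or Ltb did. Lta fell by 1.63 ± 0.23 in HP1g WT (edgeR adjusted p 0.00124), and had values of -0.43 ± 0.13, -0.47 ± 0.26 and -0.79 ± 0.18 in HP1a WT, HP1a KO and HP1g KO. Ltb fell by 1.16 ± 0.29 in HP1g WT (adjusted p 0.0185), where the naive library at 1708 CPM is included. Without that library its value was -0.74, under the threshold on the fold change, and without any 1 of the 3 HP1g WT Tconv libraries its adjusted p was 0.0566 to 0.0754. In the other 3 comparisons its values were -0.20 ± 0.08, -0.50 ± 0.09 and -0.45 ± 0.12. The sum of 10 B cell markers was lower in Tconv (94.2 to 219 CPM) than in naive cells (545 to 891 CPM) without overlap, and B cells also express Ltb and Lta. In naive HP1a WT, HP1a KO and HP1g WT cells only 2 of the 10 had a group mean of at least 1 CPM. Naive HP1g KO cells had 4 at that level and each Tconv group 3, so few genes carried these sums. The naive HP1g WT library at 1708 CPM of Ltb had the highest sums of B cell markers (891 CPM) and of 11 T cell markers (11681 CPM) of all libraries. In the HP1g line myeloid and erythroid sums were higher in Tconv than in naive libraries of the same genotype, without overlap. In HP1a KO the myeloid sum was higher in most Tconv libraries. The erythroid sum there overlapped, at 23.6 to 688 CPM in Tconv and 36.1 to 153 CPM in naive cells. In HP1a WT both sums were lower in Tconv (7.1 to 8.65 and 1.91 to 3.21 CPM) than in naive cells (10.2 to 14.7 and 32.4 to 86.8 CPM). The part of these other RNAs in the changes of the members was not tested.

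**Figure D2:**
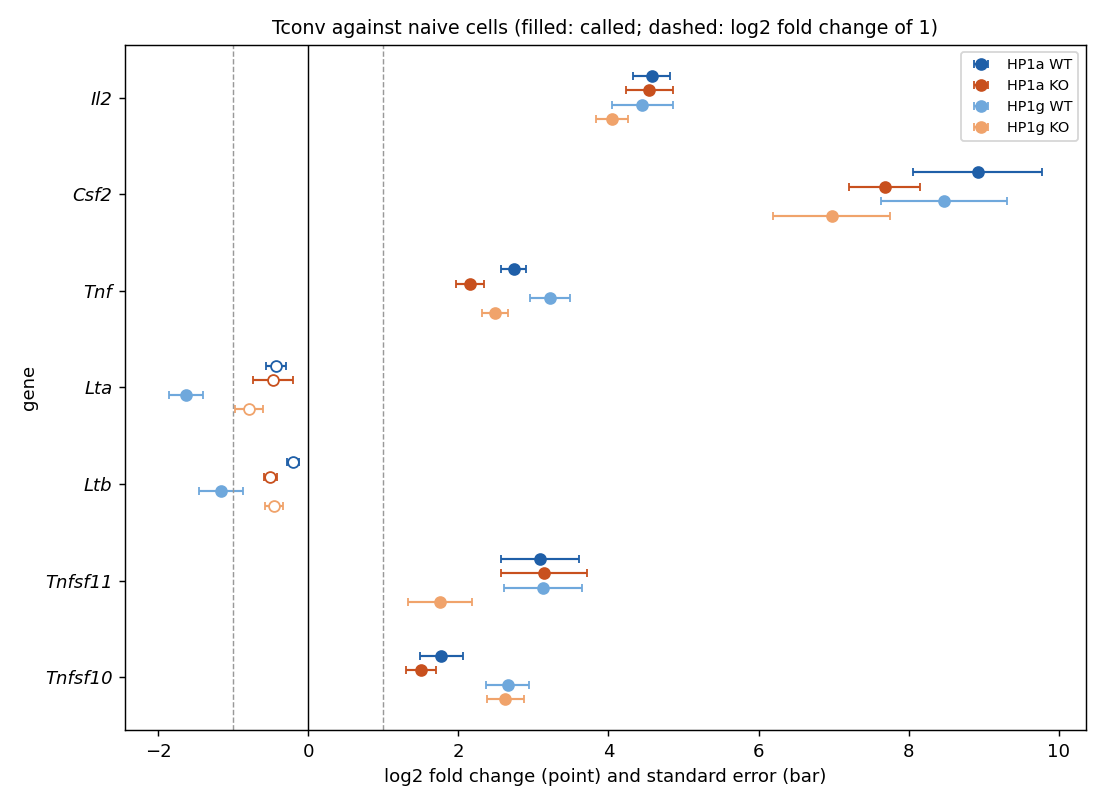
Log2 fold change of Tconv against naive cells for the 7 members tested, in each line and genotype (edgeR, bars are SE, filled points are called). Csf2 lies at 6.97 to 8.92, Il2 at 4.05 to 4.58, and Lta and Ltb lie below 0 in all 4 comparisons.

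The comparison of Tconv with and without Treg asks which of these messages changed in donor T cells under Treg. In HP1a WT cells Csf2 fell by 2.34 ± 0.35 on the log2 scale (edgeR adjusted p 0.00949), and was the only 1 of 8 members called, where 5.96% of all genes tested were called (3.54% higher and 2.43% lower). The level of Csf2 was 37.5, 53.8 and 20.6 CPM without and 7.99, 6.67 and 6.79 CPM with Treg, with no overlap. Without replicate 1 of HP1a WT Tconv the adjusted p was 0.0511 and the call was lost. Il2 had a value of -1.22 ± 0.30 (adjusted p 0.0540) and Tnfsf10 of -1.04 ± 0.27 (adjusted p 0.0623), and the libraries did not overlap for either gene. Both were called by DESeq2 (adjusted p 0.00177 and 0.00499) and when all 35 libraries entered 1 fit (0.0115 and 0.00968), which called 6.19% and 10.6% of all genes. With edgeR, Il2 was called without replicate 2 or 3 of HP1a WT Tconv with Treg (adjusted p 0.0286 and 0.0446), and Tnfsf10 without replicate 3 of that group (0.0103). Ltb passed the adjusted p but not the fold threshold, at -0.60 ± 0.14 (adjusted p 0.0398). Tnf (-0.48 ± 0.22), Lta (0.35 ± 0.27), Tnfsf11 (0.32 ± 0.25) and Il3 (-1.55 ± 1.65) did not pass. Of the 8 members, Csf2, Il2, Tnfsf10 and Ltb were lower with Treg without overlap between the libraries, and 20.1% of all genes tested were.

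In these HP1a WT cells Treg markers moved along with the result. The sum of 8 Treg markers was 261 to 480 CPM in Tconv and 650 to 839 CPM in Tconv with Treg, and Foxp3, which defines Treg, was 4.46 to 12.1 CPM in Tconv and 13.3 to 68.7 CPM with Treg. The myeloid sum was 7.1 to 8.65 CPM without and 25.6 to 60.8 CPM with Treg. Their part in the lower Csf2 was not tested.

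In HP1a KO cells no member was called in the same comparison, where 0.44% of genes were. Tnfsf10 passed the adjusted p under the fold threshold (-0.89 ± 0.12, edgeR adjusted p 0.0346), at 49.9, 52.8 and 48.2 CPM without and 30.3, 22.9 and 26.8 CPM with Treg, and was called without replicate 1 of the group with Treg (-1.01, adjusted p 0.0479). Csf2 had a value of -1.75 ± 0.41 (adjusted p 0.116, DESeq2 2.68e-05), with no overlap between libraries. Il2 stood at 0.16 ± 0.25, Ltb at 0.09 ± 0.08, Tnf at 0.30 ± 0.18, Lta at 0.69 ± 0.30 and Tnfsf11 at 0.34 ± 0.33. Here 2 of the 7 members tested were lower without overlap, Csf2 and Tnfsf10, and 13.0% of all genes were. DESeq2 called 1.48% of all genes in this comparison.

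In the HP1g line few genes of any kind differed with Treg by edgeR, 0.0126% of those tested in WT and 0.0% in KO, and no member was called in either. The WT fit did not pair the replicates, although equally numbered libraries with and without Treg varied together there (correlations of 0.119 to 0.456). At an unadjusted p under 0.05 there were 3 of 7 members in WT and 1 of 7 in KO, against 6.89% and 7.61% of all genes tested. In HP1g WT these were Csf2 (-1.72 ± 0.66, adjusted p 0.718, and -0.89 without replicate 2 of Tconv), Lta (0.79 ± 0.19, adjusted p 0.694) and Tnfsf10 (-0.65 ± 0.24, adjusted p 0.702). Lta was the only member higher with Treg without overlap, at 13.0, 8.95 and 8.99 CPM without and 17.5, 16.0 and 20.2 CPM with Treg, and 6.6% of all genes were. DESeq2 called Il3 in HP1g WT (-4.88 ± 0.97, adjusted p 0.000558), where 2 of the 3 Tconv libraries were above 3 CPM and those with Treg were at 0.142, 0.023 and 0.071 CPM, and it called 0.18% of all genes. In HP1g KO the 1 member was Tnfsf10 (-1.26 ± 0.32, edgeR adjusted p 0.502, DESeq2 0.00262), at 51.6, 87.8 and 94.9 CPM without and 27.2 and 38.2 CPM with Treg. It did not overlap, as 10.8% of genes did not in that direction, and DESeq2 called 1.36% of all genes. The other members of HP1g KO had Csf2 at 0.10 ± 0.50, Il2 at -0.66 ± 0.48, Tnf at -0.32 ± 0.19, Lta at 0.27 ± 0.26, Ltb at -0.03 ± 0.16 and Tnfsf11 at 0.85 ± 0.47. Tnfsf10 had a negative value with Treg in all 4 comparisons and was called by edgeR in none, and 17.8% of the 14821 genes tested in all 4 were negative in each.

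**Figure D3:**
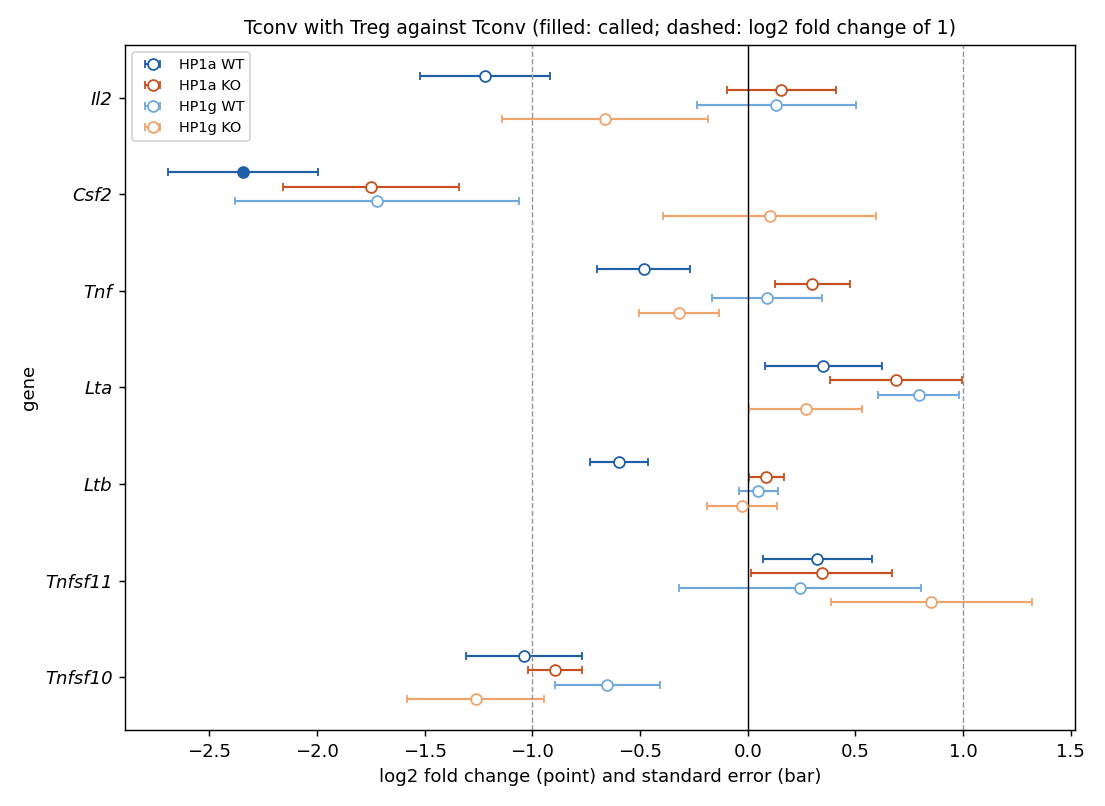
Log2 fold change of Tconv with Treg against Tconv for the members tested, in each line and genotype (edgeR, bars are SE, filled points are called). Csf2 in HP1a WT, at -2.34, is the only filled point, and the 4 points of Tnfsf10 lie between -1.26 and -0.65.

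Whether the Treg response of a member differed between groups was tested directly. Between WT cells of the lines, the difference (HP1a minus HP1g) was -0.66 ± 0.15 for Ltb (edgeR adjusted p 0.0454, under the fold threshold), where 1.56% of genes were called. Its adjusted p was 0.0158 to 0.142 when 1 library was left out, and Ltb was called in none of those fits. It was -1.37 ± 0.49 for Il2 (adjusted p 0.196) and -0.63 ± 0.74 for Csf2 (adjusted p 0.720), so that a difference in the response of Csf2 between the lines was not shown. Between KO and WT of the HP1a line, the interaction was 1.38 ± 0.41 for Il2 (adjusted p 0.235, DESeq2 0.0482), 0.69 ± 0.14 for Ltb (adjusted p 0.0922), 0.79 ± 0.30 for Tnf (adjusted p 0.395) and 0.59 ± 0.56 for Csf2 (adjusted p 0.779). No member was called by edgeR there, with 0.139% of genes called (1.12% by DESeq2), and 3 of 8 members were at an unadjusted p under 0.05, against 9.73% of all genes. In the HP1g line no member was called and none was at an unadjusted p under 0.05, where 0.0% of genes were called and DESeq2 called no member and 0.0469% of genes. The largest of its values that could be fitted in every group was that of Csf2, 1.79 ± 0.91 (adjusted p 1.0).

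The comparison of KO with WT cells asks whether loss of either HP1 protein changed these genes. No member was called by edgeR in any of the 6 comparisons (41 tests of members, 9 of them at an unadjusted p under 0.05, against 8.2% of all tests of genes), and DESeq2 called 1. The share of all genes called was 0.0% in naive HP1a cells, 0.103% in HP1a Tconv, 0.123% in HP1a Tconv with Treg, 0.00669% in naive HP1g cells, 0.0437% in HP1g Tconv and 0.0% in HP1g Tconv with Treg. By DESeq2 it was 0.0511%, 0.703%, 2.49%, 0.135%, 0.878% and 2.1% in the same order. In naive HP1a cells all 6 members tested lay between -0.08 and 0.23 and none was at an unadjusted p under 0.05. That fit did not pair the replicates, although equally numbered WT and KO libraries varied together there (correlations of 0.611 to 0.886).

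Il2 in HP1a Tconv with Treg was the member that DESeq2 called. Its level was 5.31, 8.86 and 4.98 CPM in WT and 16.2, 21.6 and 13.0 CPM in KO, without overlap. The log2 fold change was 1.39 ± 0.32 (edgeR adjusted p 0.146), with an adjusted p of 0.00212 by DESeq2 and 0.0131 with all 35 libraries in 1 fit, which called 4.12% of genes. In HP1g Tconv with Treg, Il2 had the opposite sign, -1.06 ± 0.51 (adjusted p 0.506), at 17.0, 15.3 and 26.5 CPM in WT and 4.59 and 14.3 CPM in KO. That value was -0.46 without replicate 1 and -2.12 without replicate 2 of the KO group, each of which leaves 1 KO library. The difference between the lines in the KO effect on Il2 was 2.45 ± 0.63 (edgeR adjusted p 0.0656, where 2.72% of genes were called), with DESeq2 at 0.00183 (4.56% of genes called), the fit of all libraries at 0.00211 (8.38%) and the fit without the filter on low counts at 0.0311. It ranged from 1.88 to 3.50 when 1 library was left out, and was called in 1 of those 11 fits, that without replicate 2 of HP1g KO Tconv with Treg (3.50, adjusted p 0.0124), which leaves 1 HP1g KO library that is assumed to vary like the others. Myeloid markers were also higher in HP1a KO Tconv with Treg (228 to 616 CPM) than in WT (25.6 to 60.8 CPM), as were erythroid markers (102 to 625 against 2.41 to 42.9 CPM), while T cell markers (8826 to 9186 against 10450 to 11186 CPM) and Treg markers (312 to 528 against 650 to 839 CPM) were lower, all without overlap. In HP1g Tconv with Treg the Treg markers were higher in KO (571 and 1010 CPM) than in WT (379 to 463 CPM). Their part in the values of Il2 was not tested.

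Other members with KO and WT libraries that did not overlap were also few. In HP1a Tconv these were Tnf, at 77.7, 53.4 and 55.8 CPM in KO against 96.5, 86.8 and 80.3 in WT (-0.49 ± 0.15, edgeR adjusted p 0.549), and Ltb, at 527, 507 and 508 against 689, 660 and 671 (-0.38 ± 0.06, adjusted p 0.136), 2 of 8 members against 8.56% of genes that were lower without overlap. In these HP1a KO libraries myeloid (13.4 to 189 against 7.1 to 8.65 CPM) and erythroid sums (23.6 to 688 against 1.91 to 3.21 CPM) were higher than in WT and the T cell sum was lower (8382 to 8601 against 9343 to 10117 CPM), without overlap, and their part was not tested. Ltb in HP1a Tconv with Treg lay the other way, at 580, 511 and 522 CPM in KO against 450, 461 and 389 in WT (0.29 ± 0.15, adjusted p 0.474), and with Il2 makes 2 of 7 members against 11.8% of genes. The HP1a KO libraries therefore held Ltb at 507 to 580 CPM with or without Treg, while the WT libraries held 660 to 689 CPM without and 389 to 461 CPM with Treg.

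In naive HP1g cells Tnf was 13.2, 17.3 and 16.4 CPM in KO against 8.70, 9.06 and 10.4 in WT (0.76 ± 0.17), and Tnfsf11 was 13.6, 18.5 and 16.0 against 8.47, 10.2 and 9.67 (0.79 ± 0.16), both at an edgeR adjusted p of 0.630. Ltb had a value of -0.59 ± 0.27 (adjusted p 0.630), which was -0.23 without the WT library at 1708 CPM. These are 2 of 6 members higher and 1 of 6 lower without overlap, where 8.89% and 7.93% of genes were. In HP1g Tconv, Csf2 was 13.4, 25.9 and 7.42 CPM in KO against 27.1, 116 and 42.0 in WT (-1.96 ± 0.69, adjusted p 0.513), 1 of 7 members lower without overlap, where 6.96% of genes were. Without the WT library at 116 CPM the value was -1.13. In HP1g Tconv with Treg, Tnfsf10 was 27.2 and 38.2 CPM in KO against 49.1, 55.9 and 56.4 in WT (-0.72 ± 0.18, adjusted p 0.228), and without replicate 2 of the KO group, which leaves 1 KO library that is assumed to vary like the others, it was called (-1.01, adjusted p 0.0444). Tnf there was -0.43 ± 0.16 (adjusted p 0.383). With Il2 these are 3 of 7 members lower without overlap, where 13.3% of genes were with 2 KO libraries.

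**Figure D4:**
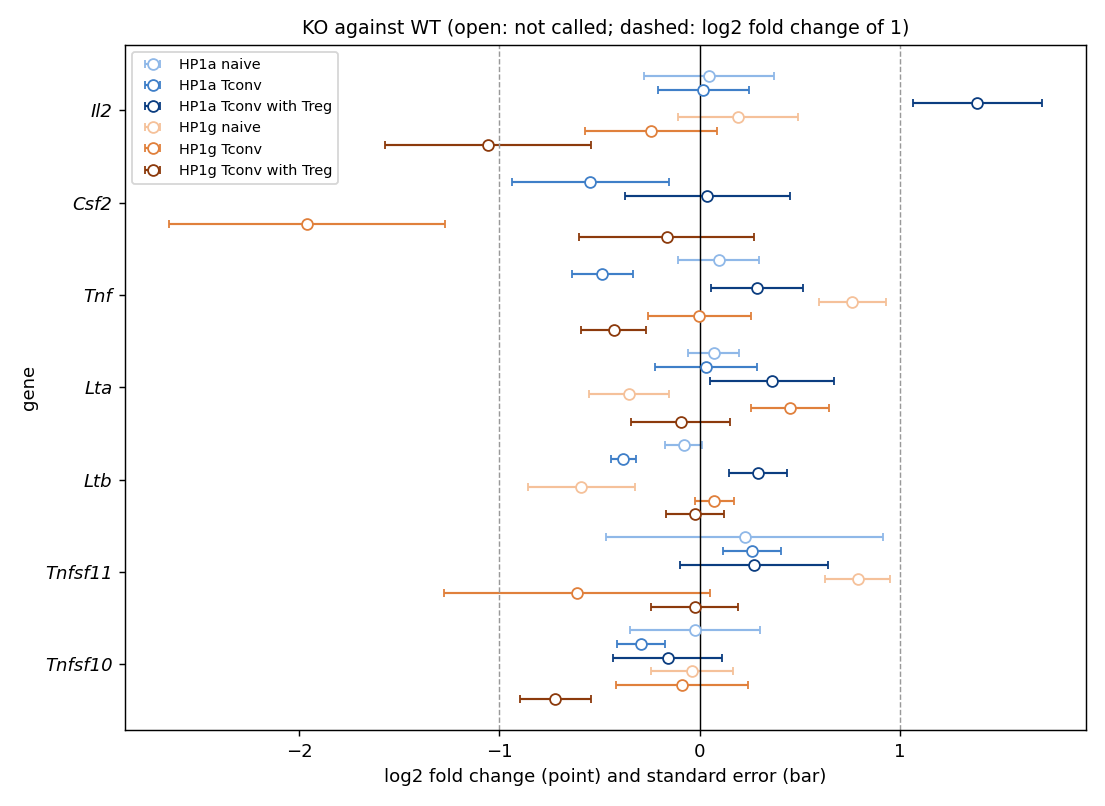
Log2 fold change of KO against WT for the members tested in each of the 6 comparisons (edgeR, bars are SE). All points are open, since no member was called. The values run from -1.96 for Csf2 in HP1g Tconv to 1.39 for Il2 in HP1a Tconv with Treg.

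Tnfsf11 and Tnfsf10 varied in opposite directions between libraries of the same group. The library with the highest Tnfsf11 had the lowest Tnfsf10 in 10 of the 12 groups. After the group means were taken out, the correlation of their log levels was -0.87 over 23 grafted libraries and -0.82 over 12 naive libraries, and it was 0.27 over the 6 naive libraries of the HP1g line. In the naive HP1a groups replicate 1 stood apart, with Tnfsf11 at 16.9 CPM in WT and 21.2 in KO against 5.54 to 5.73 CPM in the other replicates, and Tnfsf10 at 10.3 and 12.4 against 19.8 to 22.9 CPM. Replicate 1 of each grafted HP1g group, the libraries with erythroid sums of 3103 to 5445 CPM, was also highest in Tnfsf11 and lowest in Tnfsf10 of its group. Without the HP1g Tconv groups, 17 grafted libraries gave -0.71. The libraries share their sets, sorting and depth, so these correlations are descriptions, and the part of the erythroid RNA in them was not tested.

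Among the members, other pairs varied together less in grafted cells, but not in naive cells. Over the 23 grafted libraries Tnf had correlations within groups of 0.54 with Lta, 0.53 with Ltb, 0.59 with Tnfsf11 and -0.70 with Tnfsf10, and over the 17 grafted libraries outside the HP1g Tconv groups these were 0.45, 0.61, 0.13 and -0.44. Over the 12 naive libraries Tnf had -0.54 with Lta and 0.86 with Tnfsf11, and Lta had 0.71 with Ltb. The pair of Tnfsf11 and Tnfsf10 had -0.82 there, so that of Tnf and Tnfsf11 was the stronger. In the 23 grafted libraries the neighbours Csf2 and Il3 had 0.33, and Il2 and Csf2 had 0.05.

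The wider pathway was read from fixed lists of other genes. In Tconv against naive cells, 12.9%, 12.4%, 15.0% and 15.7% of all genes tested were called higher in HP1a WT, HP1a KO, HP1g WT and HP1g KO. Those called lower were 10.2%, 7.24%, 8.55% and 7.3%. The counts below are out of all genes listed, tested or not, and whether a list differed from these shares was not tested. Of 16 receptor genes for these ligands, 5 rose and 2 fell in HP1a WT Tconv against naive cells, 5 rose and 0 fell in HP1a KO, 7 rose and 1 fell in HP1g WT and 5 rose and 2 fell in HP1g KO. They included Il2rb, the signalling β chain of the IL-2 receptor (log2 fold changes 5.53, 5.20, 6.14 and 5.73), and Il2ra, its high-affinity α chain (3.70, 3.24, 3.83 and 3.07). Of 12 other TNF superfamily ligands, 6, 5, 5 and 6 rose and none fell by edgeR, among them Tnfsf14, which encodes LIGHT (6.34, 6.70, 6.11 and 5.90). Of 13 other T cell cytokines, 6, 7, 11 and 7 rose and none fell, with Ifng at 12.55, 10.64, 11.52 and 11.18, fitted against naive counts near 0. Of 16 transcription factors known to act on these genes, 3, 3, 7 and 3 rose and 0, 0, 0 and 1 fell. Among them Bhlhe40, a factor known to promote Csf2 expression, rose in all 4 (8.98, 8.63, 9.23 and 8.33), as did Prdm1, which encodes Blimp-1, a repressor of Il2 (2.15, 1.98, 3.83 and 3.61). Of 10 proteins that bind AU-rich elements, 0, 0, 1 and 0 rose and 0, 0, 1 and 1 fell. In HP1g WT these were Zc3h12a, which encodes the RNase regnase-1 (2.70), and Zfp36l1 (-1.19), which also fell in HP1g KO (-1.01).

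With Treg, most calls in these lists were in HP1a WT, where 3.54% of all genes tested were called higher and 2.43% lower. Receptors had 1 gene higher and 1 lower of 12 tested, other TNF ligands 2 and 1 of 8, other cytokines 2 and 1 of 10, transcription factors 0 and 1 of 16, and proteins that bind AU-rich elements 1 and 0 of 10. Their median log2 fold changes were -0.28, 0.43, 1.41, 0.21 and -0.06, against 0.03 over all genes. Il21 (5.98) and Il10 (5.38), the latter encoding an inhibitory cytokine, rose while Osm, which encodes oncostatin M, fell by 1.54. Tnfsf4, which encodes OX40L, rose by 2.87 and Tnfsf8, which encodes CD30L, rose by 2.38, whereas Tnfsf14 fell by 1.02. Bhlhe40 fell by 1.10 and Zfp36l1, whose product binds AU-rich elements, rose by 1.32, and any relation of either to the members was not tested. Ifng stood at -0.07 (edgeR adjusted p 0.908). Tnfrsf11a, which encodes RANK, the receptor for RANKL, was called lower and went from 0.65 to 1.47 CPM in HP1a WT Tconv to 0 to 0.03 CPM with Treg, under the floor. In HP1a KO cells, where 0.44% of all genes tested were called, Il22 (2.79) rose and Osm fell by 1.11. In the HP1g line no gene of these lists was called by edgeR in WT or KO, where 0.0126% and 0.0% of all genes were. In the 6 comparisons of KO with WT no gene of these lists was called by edgeR, where at most 0.123% of all genes tested were.

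The genes whose pattern over the 12 group means was most like that of each member were found among 10107 genes, by Pearson correlation of log2(CPM + 1), as a description. For Il2 they were Itgb1 (0.994) and Emp1 (0.993), for Csf2 Pde4a (0.993) and Ctla2a (0.989), and for Tnf Tedc1 (0.994) and Rora (0.989). For Tnfsf11 they were Egln3 (0.988) and Cpd (0.983), for Tnfsf10 Pnpla2 (0.979) and Eps8 (0.975), for Ltb Ldah (0.971) and Zranb2 (0.954), for Lta Gngt2 (0.938) and Elovl6 (0.929), and for Il3 Fgd5 (0.915) and Lgals7 (0.873). Among these 16 genes only Pde4a, Rora and Lgals7 were again among the first 2 of their member over the 35 libraries.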

How the data were processed

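RNA was amplified with a SMART-Seq kit and sequenced as paired-end reads. The authors aligned the reads to GRCm39 by STAR, using Ensembl gene models, and quantified genes with Salmon through nf-core/rnaseq, and deposited estimated counts per gene, without scaling, in 1 table of 36 libraries. Of these values 82.9% were whole numbers. Salmon divides reads between similar genes, which can move reads between overlapping genes. The authors left out replicate 3 of HP1g KO Tconv with Treg because its base composition, share of exonic reads and coverage bias were abnormal. The same was done here.

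Estimated counts were rounded and tested with edgeR 4.0.16 in R 4.3.3 (quasi-likelihood, robust, TMM, filterByExpr) using the libraries of the groups compared, with Benjamini-Hochberg adjustment over all genes tested. Calls needed an adjusted p under 0.05 and a log2 fold change beyond 1 in size, as in the study. The study's tool, DESeq2 1.42.0, was an alternative, beside RLE size factors, no low-count filter, adjusted p alone, all 35 libraries in 1 fit, a replicate block, addition of the left-out library, and omission of each library in turn. The code was tested on simulated data. SD is over libraries, SE that of the log2 fold change.

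Every member was named in each comparison, and of the other lists at most 4 called genes per comparison, those with the largest change. Positions, exon lengths, promoters and UTRs came from GRCm39 and GENCODE. Replicate numbers met the rule for pairing where the deviations of all 3 pairs correlated above 0.1. That was the case in the naive HP1a comparison of KO with WT (0.611 to 0.886) and the Treg effect in HP1g WT (0.119 to 0.456). The reported fits held no replicate block in any comparison, these included, so their p-values leave such pairing out. The block was an alternative only. The members and lists were chosen with earlier results of these data known.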

Additional observations from a re-analysis of the deposited data

Results flagged for a closer look

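The response of Ltb to Treg was compared directly between WT cells of the lines, and the difference passed the adjusted p but not the fold threshold. The log2 fold change with Treg was -0.60 ± 0.14 (SE) in HP1a WT and 0.05 ± 0.09 in HP1g WT, and the difference was -0.66 ± 0.15 (edgeR adjusted p 0.0454). With 1 library left out the adjusted p ran from 0.0158 to 0.142, and Ltb was called in none of these fits. All 3 HP1a WT libraries with Treg (389 to 461 CPM) lay below all 3 without (660 to 689 CPM), while in HP1g WT the libraries overlapped (493 to 554 against 493 to 533 CPM). The lines were separately named sets, so that line and set cannot be told apart.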

How the results depend on the processing

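No called fold change reversed. Of 1616 fold changes of members under an alternative, 1585 kept their side of the threshold, 9 of 253 recomputed calls were lost and 22 were gained. The sign changed in 85 of the 1616, none of them called either way. All 96 group levels stayed within 1 SD under RLE size factors. Counts of members called moved as follows. For the Treg effect in HP1a WT, 1 call became 3 with DESeq2, 3 with no filter, 3 with all libraries in 1 fit, 2 by adjusted p alone and 0 to 3 without 1 library. In HP1a KO, 0 became 1 with DESeq2, 1 by adjusted p alone and 0 to 1 without 1 library, and in HP1g WT and HP1g KO 0 became 1 with DESeq2. For KO against WT, 0 became 1 with DESeq2 and 1 in the fit of all libraries in HP1a Tconv with Treg, and 0 to 1 without 1 library in HP1g Tconv with Treg. The HP1a interaction went from 0 to 1 with DESeq2. The difference of KO effects between lines went from 0 to 1 with DESeq2, with no filter and with all libraries in 1 fit, and 0 to 1 without 1 library, and the difference of WT Treg effects from 0 to 1 by adjusted p alone. With the replicate block, the Treg effect gave 2 calls in HP1a WT (Csf2 and Tnfsf10) and 1 in HP1a KO (Csf2), where the numbers did not meet the rule for pairing, and the block changed no other count by over 1.5 times. The left-out library held no member above the WT range. Il3 and naive Csf2 are limited by counts near 0.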
